A study of Homo sapiens with 4 samples.

Results

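The Notch pathway genes described here are the ligands, receptors, fringes, processing enzymes, nuclear partners and HES and HEY targets of a list of 43 gene symbols, of which 40 are rows of the deposited table of 17472 genes. DLL4, DLK2 and HES5 are not listed there and were not analysed here. All 40 passed the filter on low values (a normalised read count of at least 10 in at least 2 libraries). The values are from poly(A) RNA of H1, an established human embryonic stem cell line, with 2 libraries per group. WT cells are unmodified H1. MEK5DD cells are H1 that carry a MAP2K5 (MEK5) sequence in which a pair of amino acids is changed to aspartate. The sequence was delivered by lentivirus with puromycin selection, and the labels describe a single such line. Both groups were kept in E8, a defined medium with FGF2, TGF-beta and insulin. No library is of cells given lentivirus and puromycin without MEK5DD, so MEK5DD and its delivery, the selection and the subline cannot be told apart.

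Notch receptors sit at the cell surface and are switched on by ligands of the Delta-like and Jagged families on a neighbouring cell. Binding exposes the receptor to cleavage first by an ADAM protease and then by gamma-secretase, and the freed intracellular domain joins the DNA-binding protein RBPJ and a Mastermind coactivator at target genes. The best known targets are the HES and HEY genes, which encode basic helix-loop-helix repressors that hold back neuronal differentiation. In human embryonic stem cells the pathway is known for its part in the choice to leave the undifferentiated state rather than in keeping it. Transcript levels do not measure receptor cleavage, so the values below are of the pathway's RNAs and not of its activity.

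MAP2K5 had normalised read counts of 344 and 315 in WT and of 3382 and 3558 in MEK5DD, as a check of the labels. The libraries held 14908486 to 17628945 recovered reads. Of 11 pluripotent stem cell markers all were listed, 2 rose (NANOG and UTF1) and 1 fell (SOX2). The summed normalised count of the 11 was 143535 to 145640 in WT and 140196 to 147857 in MEK5DD. Of 10 fibroblast or feeder markers 6 were listed and 4 rose: COL1A1, COL1A2, COL6A3 and TAGLN (log2 fold changes 0.64, 0.75, 1.54 and 1.02). THY1 and PDGFRB were not called (0.10 and -0.39). The sum of the 6, most of it from THY1, was 7518 to 7591 in WT and 9198 to 9492 in MEK5DD. COL3A1, DCN, LUM and POSTN are not listed. Of 11 neural progenitor markers 9 were listed, 1 rose and 5 fell, and their sum, most of it from NES, was 8264 to 8497 in WT and 8312 to 8817 in MEK5DD. The median log2 fold change of the 8 neural markers tested was -1.08. SIX6, SOX1, MAP2, SOX3 and OTX2 fell (log2 fold changes -2.72, -2.41, -2.13, -1.32 and -0.85) and NES rose (0.35). FABP7 and DCX were not called (0.78 and 0.19). PAX6 was too low to be tested, with 1.76 and 3.12 in WT and 6.36 and 5.98 in MEK5DD. LHX2 and NEUROG2 are not listed. Of 10 endothelial markers 6 were listed, 2 rose (KDR and TEK, log2 fold changes 1.02 and 1.55) and 1 fell (ERG, -1.71). VWF and TIE1 were not called (-0.62 and 0.24), and ESAM was not tested. The endothelial sum, most of it from KDR, was 2833 to 2903 in WT and 5498 to 5739 in MEK5DD. PECAM1, CDH5, EMCN and SOX17 are not listed. The mesoderm or endoderm markers had 4 of 8 listed, 2 of which were called higher (MIXL1 and GATA4), with a sum of 107 to 111 in WT and 205 to 243 in MEK5DD; MESP1, FOXA2, GATA6 and HAND1 are not listed. GATA4 was at 3.52 and 5.21 in WT and 17.3 and 14.0 in MEK5DD, so it passed the filter only through MEK5DD. Beside these marker counts, 14.2% of all tested genes were called, 7.69% higher and 6.47% lower. The part of these markers in the results on Notch genes was not tested. In bulk RNA, fewer cells that express a gene and less RNA per cell cannot be told apart.

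Within the Notch pathway the ligand DLL3 and the repressor gene HES2 rose most in MEK5DD cells (3.88-fold and 2.68-fold), and the repressor gene HES3 was the called gene that fell most (1.72-fold lower). DLL3, JAG2, HES2, HES4, HEY1 and NUMBL rose, and NOTCH2, DLL1, HES1, HES3, DTX3 and PSEN2 fell. Of the 40 genes tested, 6 thus rose and 6 fell, which is 30.0% of them, beside 14.2% of all 15721 genes tested. By direction, 7.69% of all tested genes were called higher and 6.47% lower. The test was limma on log2(normalised count + 1), with Benjamini-Hochberg adjustment across the whole tested table and a threshold of 0.05. The median log2 fold change was 0.05 over the 40 genes and -0.0023 over all tested genes, and 2 of the 40, DLL3 and HES2, were called with a change of at least 2-fold, beside 2.44% of all tested genes; at 1.5-fold the members were 5, beside 5.78%. In 28 of the 40 the WT values and the MEK5DD values did not overlap, as they did not in 56.2% of all tested genes. The labels do not say whether replicates were separate cultures, so the p-values rest on the spread of these libraries alone, which may be technical. DLL3, HES2, HES3 and HEY1 were the called genes that passed in each of the 4 fits that left out 1 library, as 5.51% of all tested genes did.

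**Figure D1:**
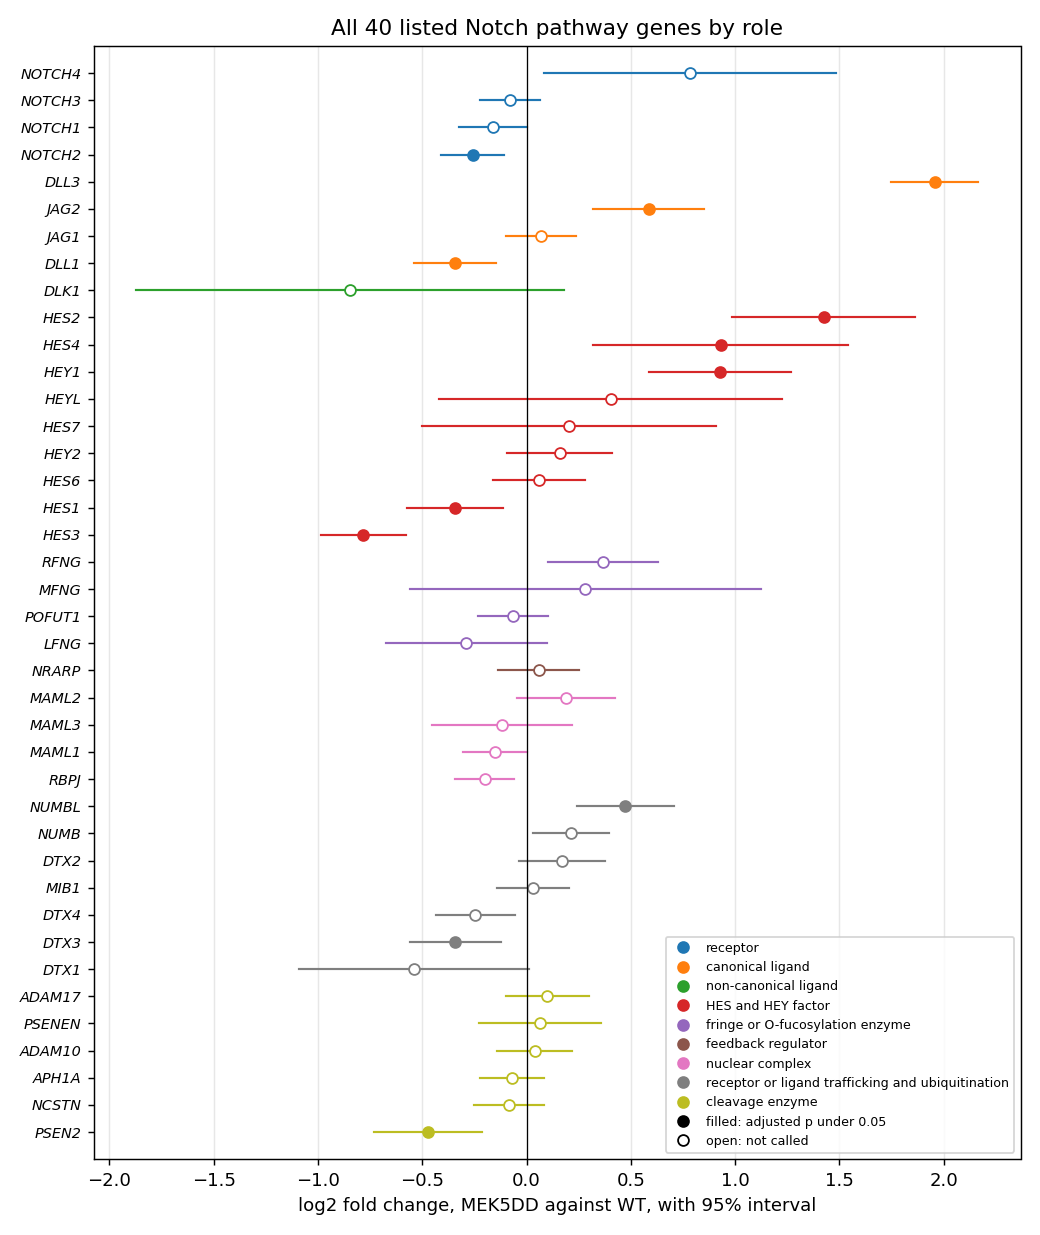
Log2 fold change of MEK5DD against WT (x axis) with its 95% interval for each of the 40 listed Notch pathway genes, grouped and coloured by role; filled points passed an adjusted p of 0.05 and open points did not. DLL3 lies farthest to the right at 1.96, and the filled points to the left of 0 are NOTCH2, DLL1, HES1, HES3, DTX3 and PSEN2.

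Among the receptors, NOTCH2 fell and the other 3 did not pass the test. NOTCH2 had normalised counts of 2378 and 2337 in WT and of 1882 and 2066 in MEK5DD. Both MEK5DD libraries were below both WT libraries (log2 fold change -0.26, SE 0.07, adjusted p = 0.0283). The call was lost with WT replicate 1 left out (adjusted p = 0.297), with WT replicate 2 left out (adjusted p = 0.230), with no mean-variance trend (adjusted p = 0.207) and with DESeq2 (adjusted p = 0.0569). NOTCH2 shares sequence with the NOTCH2NL genes, so its count may hold reads of those copies or lack reads that were dropped as ambiguous.

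NOTCH1 had 1886 and 2134 in WT and 1787 and 1804 in MEK5DD (log2 fold change -0.16, 95% interval -0.32 to 0.00, limma adjusted p = 0.188). Its log2 fold change ran from -0.25 to -0.07 over the 14 alternatives. NOTCH3 had 2083 and 2203 in WT and 2031 and 2021 in MEK5DD, with an interval of -0.22 to 0.06 around a log2 fold change of -0.08. For both genes the MEK5DD values lay just below the lower WT value. NOTCH4, best known from endothelium, was scarce, with 23.8 and 14.6 in WT and 32.7 and 32.9 in MEK5DD (14 to 36 recovered reads per library). Its log2 fold change was 0.78 with an interval of 0.08 to 1.48 and an adjusted p of 0.134, and its exons overlap those of GPSM3.

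Per kb of annotated exon, NOTCH3 had the highest receptor level in WT (228 ± 9.02 normalised counts per kb, SD, n = 2), followed by NOTCH1 (194 ± 16.9) and NOTCH2 (140 ± 1.72), and NOTCH4 was far lower (1.97 ± 0.67). In MEK5DD the order was the same, with 216 ± 0.72 for NOTCH3, 173 ± 1.14 for NOTCH1, 117 ± 7.75 for NOTCH2 and 3.36 ± 0.01 for NOTCH4. In each group the 2 libraries of a receptor lay apart from those of the next receptor in that order. These levels compare genes by exon length and rest on the GENCODE v29 exon models.

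Of the 4 canonical ligand genes listed, DLL3 and JAG2 rose, DLL1 fell and JAG1 did not pass. DLL3 encodes a divergent Delta-like protein that does not activate receptors on neighbouring cells and is known to act against Notch within the cell that makes it. Its normalised count was 203 and 218 in WT and 842 and 793 in MEK5DD. The groups stood far apart relative to the distance between replicates (log2 fold change 1.96, SE 0.10, limma adjusted p = 1.19e-07), and the log2 fold change stayed between 1.90 and 2.01 in all 14 alternative analyses. DLL3 lies on chromosome 19, 39498895 to 39508481 (GRCh38).

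DLL1, an activating Delta-like ligand, had 558 and 544 in WT and 447 and 423 in MEK5DD. Every MEK5DD value was lower than every WT value, a 1.27-fold fall (log2 fold change -0.34, SE 0.09, limma adjusted p = 0.0250). The call was lost with WT replicate 1 left out (adjusted p = 0.234), with WT replicate 2 left out (adjusted p = 0.158), with no mean-variance trend (adjusted p = 0.12) and with DESeq2 (adjusted p = 0.0924).

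JAG2, a Jagged ligand, had 157 and 172 in WT and 254 and 239 in MEK5DD. The groups did not overlap, and the MEK5DD values were higher (log2 fold change 0.58, SE 0.12, limma adjusted p = 0.00758). Without WT replicate 1 the adjusted p was 0.0576, and without the mean-variance trend it was 0.0692. JAG1, the other Jagged ligand, had 1219 and 1368 in WT and 1353 and 1358 in MEK5DD. Both MEK5DD values fell inside the WT range, and the 95% interval of the log2 fold change was -0.10 to 0.24.

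Per kb of exon, DLL1 had the highest ligand level in WT (171 ± 3.23, SD, n = 2), above JAG1 (139 ± 11.3), DLL3 (80.3 ± 4.08) and JAG2 (25.7 ± 1.67). In MEK5DD DLL3 came first (312 ± 13.2), above JAG1 (146 ± 0.42), DLL1 (135 ± 5.36) and JAG2 (38.6 ± 1.68). The values of JAG1 in MEK5DD (146 and 146) lay above those of DLL1 (139 and 131). This ligand order rests on the GENCODE v29 exon models, of 9298 bases for JAG1, 3226 for DLL1 and 2618 for DLL3. By count alone JAG1 was the highest ligand in both groups (1219 and 1368 in WT, 1353 and 1358 in MEK5DD). DLL3 made up 19.1% and 19.5% of the summed level per kb of the 4 ligands in WT and 49.8% and 49.1% in MEK5DD. The share of DLL1 was 42.6% and 39.6% in WT and 21.5% and 21.2% in MEK5DD. The share of JAG2 was 6.04% and 6.31% in WT and 6.16% and 6.06% in MEK5DD. DLK1, a non-canonical ligand gene without the domain that engages Notch in the classical ligands, was near the filter, with 12.3 and 14.6 in WT and 5.45 and 8.97 in MEK5DD (limma adjusted p = 0.272), and it passed the filter only through WT.

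**Figure D2:**
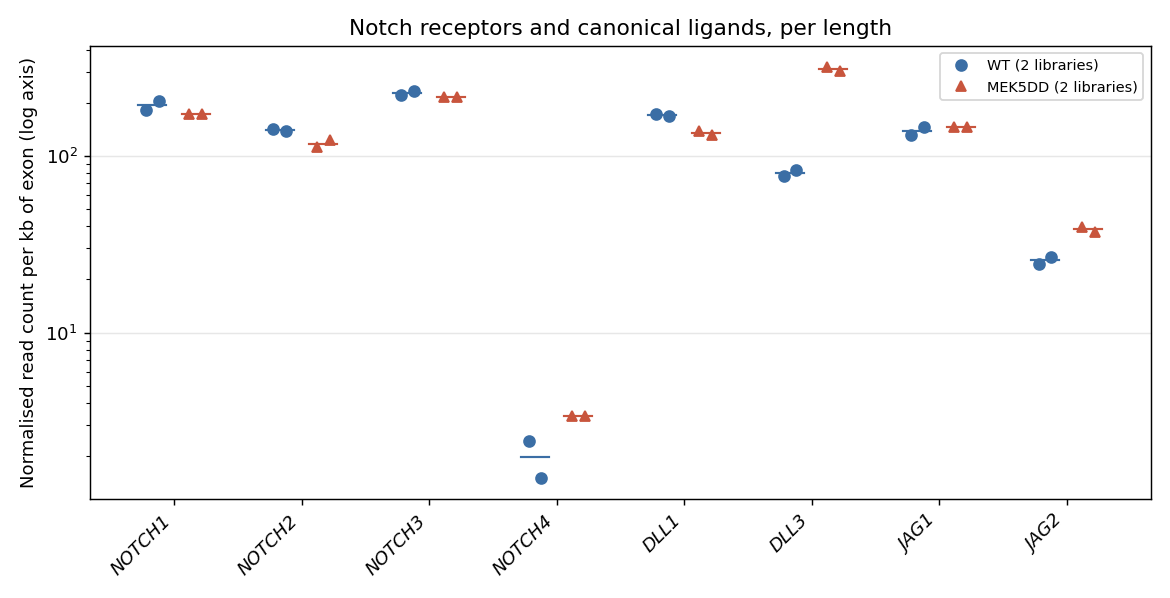
Normalised read count per kb of annotated exon (log y axis) for the 4 NOTCH receptors and the 4 listed canonical ligands; circles are the 2 WT libraries, triangles the 2 MEK5DD libraries, and short lines the group means. DLL3 moves from a mean of 80.3 in WT to 312 in MEK5DD, above the other ligands.

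The HES and HEY genes moved in both directions: of 9 tested, 3 rose (HES2, HES4 and HEY1), 2 fell (HES1 and HES3) and 4 did not pass. The 4 HES genes that passed are shown by the 250 bases before their RefSeq start sites (GRCh38.p14), since RBPJ binding near the start is the textbook route from Notch to HES1. Capitals mark TGGGAA, the core of the RBPJ motif, on either strand.
HES1: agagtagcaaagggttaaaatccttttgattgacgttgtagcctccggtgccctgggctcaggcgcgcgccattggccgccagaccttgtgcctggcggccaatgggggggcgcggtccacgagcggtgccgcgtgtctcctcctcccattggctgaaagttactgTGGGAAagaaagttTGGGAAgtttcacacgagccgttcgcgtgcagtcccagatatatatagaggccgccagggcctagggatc
HES2: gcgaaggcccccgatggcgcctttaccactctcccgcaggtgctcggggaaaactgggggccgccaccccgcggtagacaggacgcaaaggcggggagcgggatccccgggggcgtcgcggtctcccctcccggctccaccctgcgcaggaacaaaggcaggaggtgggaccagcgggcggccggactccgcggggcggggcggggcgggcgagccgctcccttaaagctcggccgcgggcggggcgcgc
HES3: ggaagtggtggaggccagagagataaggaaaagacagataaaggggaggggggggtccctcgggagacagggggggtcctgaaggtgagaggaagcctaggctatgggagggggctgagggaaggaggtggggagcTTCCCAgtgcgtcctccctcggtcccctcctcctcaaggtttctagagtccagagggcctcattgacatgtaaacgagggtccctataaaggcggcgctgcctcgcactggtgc
HES4: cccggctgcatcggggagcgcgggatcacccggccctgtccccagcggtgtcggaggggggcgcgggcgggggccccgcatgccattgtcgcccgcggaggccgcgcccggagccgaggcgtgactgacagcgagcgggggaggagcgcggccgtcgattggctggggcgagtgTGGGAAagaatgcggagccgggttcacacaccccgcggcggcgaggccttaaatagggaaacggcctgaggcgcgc
The HES1 stretch (chr3:194135898-194136147, plus strand) held 2 matches, beginning 84 and 70 bases before the start. The HES3 stretch (chr1:6243929-6244178, plus strand) held 1, on the opposite strand, 114 bases before the start, and the HES4 stretch (chr1:1000098-1000347, minus strand) held 1, 76 bases before the start. The HES2 stretch (chr1:6419920-6420169, minus strand) held none. It lies within the GENCODE v29 span of HES2 (6412418 to 6424670) and not before the start of that gene model. Among all 35116 promoter entries of the RefSeq table, 20.8% held the motif in the same window, as did 9 of the 40 entries of listed Notch genes (22.5%, from 33 genes). A match is only a run of letters: HES1 and HES3, with matches, fell, HES4, with a match, rose, and HES2, without one, rose.

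HES1, the classical Notch target, had normalised counts of 518 and 630 in WT and of 463 and 437 in MEK5DD. All MEK5DD values were lower, with WT replicate 1 closer to the MEK5DD pair than WT replicate 2 was (log2 fold change -0.34, SE 0.11, limma adjusted p = 0.0495). Without WT replicate 2 the log2 fold change was -0.20 and the adjusted p 0.558, and the call was also lost with no mean-variance trend (adjusted p = 0.227) and with DESeq2 (adjusted p = 0.113).

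HES3, a HES repressor gene known from neural stem cells, had 610 and 666 in WT and 383 and 358 in MEK5DD. The groups were far apart, and the fall passed in all 14 alternatives (log2 fold change -0.78, SE 0.09, limma adjusted p = 0.000189), with the log2 fold change between -0.85 and -0.72. HES2 had 32.6 and 36.5 in WT and 91.8 and 96.7 in MEK5DD, from 35 to 101 recovered reads per library. Replicates were close in both groups, and the rise (log2 fold change 1.42, SE 0.20, limma adjusted p = 0.000623) passed in all 14 alternatives. HES3 (6244192 to 6245578) and HES2 (6412418 to 6424670) both lie on chromosome 1.

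HES4 had 23.8 and 20.8 in WT and 50.9 and 36.9 in MEK5DD, from 20 to 56 recovered reads. The MEK5DD libraries were both higher but differed from each other, and the rise (log2 fold change 0.93, SE 0.28, limma adjusted p = 0.0450) was lost with WT replicate 1 left out (adjusted p = 0.0653), WT replicate 2 (0.161) or MEK5DD replicate 1 (0.186), with no mean-variance trend (0.0954) and with DESeq2 (0.201). HEY1, a HEY repressor gene of heart and vessel development, had 90.7 and 78.1 in WT and 170 and 153 in MEK5DD. The groups did not overlap, and the rise was 1.90-fold (log2 fold change 0.93, SE 0.16, limma adjusted p = 0.00198). It passed in each fit that left out 1 library, and without the mean-variance trend its adjusted p was 0.0512.

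HES6, whose protein is known to oppose HES1, had 466 and 490 in WT and 540 and 459 in MEK5DD, with overlapping groups and a 95% interval of -0.16 to 0.28 on the log2 scale. HEY2 had 259 and 291 in WT and 326 and 288 in MEK5DD, also overlapping (interval -0.09 to 0.41). HES7, a gene of the segmentation clock, had 19.4 and 18.7 in WT and 24.5 and 19.9 in MEK5DD (interval -0.50 to 0.91). HEYL had 14.1 and 11.5 in WT and 16.4 and 17.9 in MEK5DD (interval -0.42 to 1.22). At these last counts of 11 to 27 recovered reads per library a change of the size of that of HEY1 lies inside the HEYL interval.

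**Figure D3:**
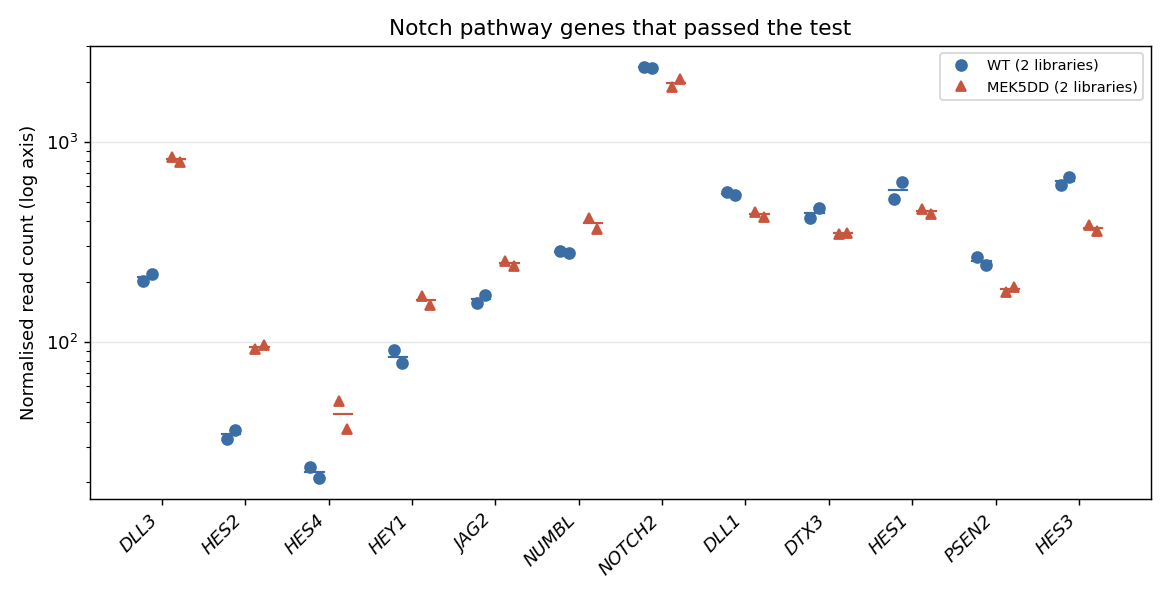
Normalised read count (log y axis) of the 12 Notch pathway genes that passed the test, in order of log2 fold change; circles are the 2 WT libraries, triangles the 2 MEK5DD libraries, and short lines the group means. The genes were chosen by the test on these same libraries. In every gene shown the WT and MEK5DD libraries do not overlap, as they do not in 56.2% of all tested genes. The order runs from DLL3 (203 and 218 against 842 and 793) to HES3 (610 and 666 against 383 and 358).

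Set against each other per kb of exon, HES3 had the highest level of the HES and HEY genes in all 4 libraries, at 874 and 955 normalised counts per kb in WT and 549 and 513 in MEK5DD. Its annotated exons add up to only 697 bases, so this level rests on a short gene model. By count alone HES3 was also highest in WT (610 and 666). In MEK5DD its count (383 and 358) was below those of HES6 (540 and 459) and HES1 (463 and 437). HES3 made up 57.6% and 57.2% of the summed HES and HEY level per kb in WT and 42.5% and 43.9% in MEK5DD. HES1 had a share of 16.5% and 18.3% in WT and 17.4% and 18.1% in MEK5DD. The share of HES6 was 15.1% and 14.4% in WT and 20.5% and 19.3% in MEK5DD, although the HES6 level itself was not called. The shares of HEY1 (1.85% and 1.45% in WT, 4.07% and 4.03% in MEK5DD) and HES2 (0.397% and 0.404% in WT, 1.32% and 1.53% in MEK5DD) were small in both groups. Shares of a sum are tied to each other, and the fall of HES3 raises the shares of the others.

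**Figure D4:**
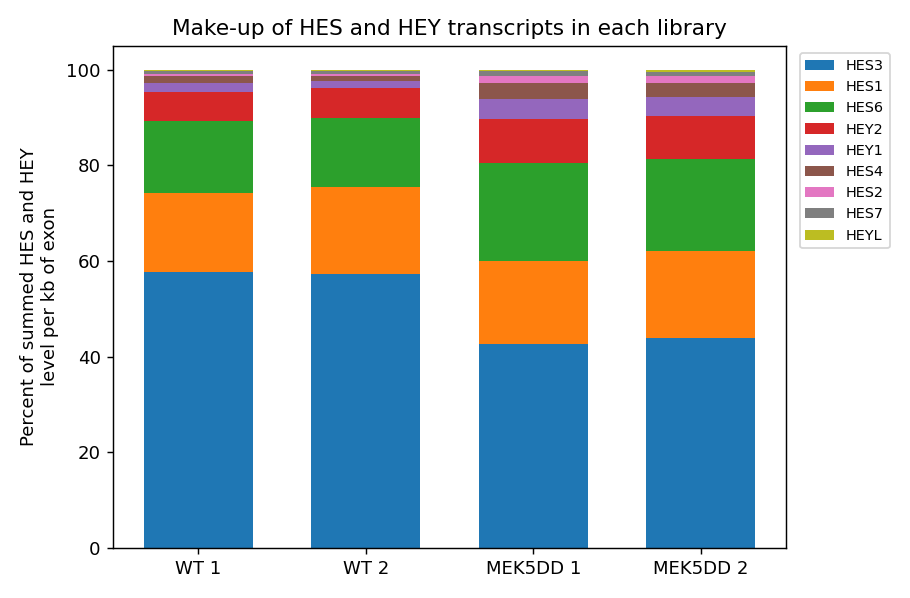
Share of each gene in the summed HES and HEY level per kb of exon (y axis, percent) in each of the 4 libraries (x axis). The HES3 segment takes 57.6% and 57.2% in WT and 42.5% and 43.9% in MEK5DD.

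The sugar-modifying enzymes of the receptors were not called. POFUT1, which adds O-fucose to the EGF repeats of Notch, had 845 and 856 in WT and 797 and 828 in MEK5DD (95% interval of the log2 fold change -0.23 to 0.10). The fringe genes LFNG, MFNG and RFNG, whose enzymes extend that fucose and shift the preference between Delta-like and Jagged ligands, had log2 fold changes of -0.29, 0.28 and 0.37. RFNG, with 189 and 196 in WT and 264 and 233 in MEK5DD, came closest (limma adjusted p = 0.0648). Over the 14 alternatives its log2 fold change ran from 0.28 to 0.46. Its exons overlap GPS1 on the opposite strand, and the sources used here do not say if counting was stranded.

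Of the genes for receptor and ligand trafficking, NUMBL rose, DTX3 fell and the other 5 of 7 were not called. NUMBL encodes a relative of the Notch antagonist NUMB. It had 284 and 278 in WT and 417 and 366 in MEK5DD, with the groups apart (log2 fold change 0.47, SE 0.11, limma adjusted p = 0.0116), and its adjusted p was 0.0653 without WT replicate 2 and 0.103 without the mean-variance trend. NUMB itself had 842 and 752 in WT and 915 and 929 in MEK5DD (log2 fold change 0.21, limma adjusted p = 0.116). Its log2 fold change ran from 0.13 to 0.29 over the 14 alternatives.

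The Deltex genes encode ubiquitin ligases, some of which bind the Notch intracellular domain. DTX3 had 417 and 468 in WT and 346 and 351 in MEK5DD, all MEK5DD values being lower (log2 fold change -0.34, SE 0.10, limma adjusted p = 0.0398). The call was lost with WT replicate 1 left out (adjusted p = 0.0868), with WT replicate 2 left out (adjusted p = 0.430), with no mean-variance trend (adjusted p = 0.151) and with DESeq2 (adjusted p = 0.142). DTX1, itself a known Notch target gene, had 133 and 71.9 in WT and 60.9 and 73.8 in MEK5DD, so that WT replicate 1 alone stood above the rest. The log2 fold change of DTX1 was -0.54 over all 4 libraries (limma adjusted p = 0.191). It ran from -0.98 to -0.10 over the 14 alternatives. DTX4 had 646 and 628 in WT and 554 and 520 in MEK5DD (limma adjusted p = 0.0810). Across the 14 alternatives its log2 fold change ran from -0.29 to -0.20. DTX2 had a log2 fold change of 0.17 (limma adjusted p = 0.268). MIB1, the ligase that readies ligands for signalling, had 2885 and 3098 in WT and 2826 and 3306 in MEK5DD, with overlapping groups and an interval of -0.14 to 0.21. Its log2 fold change ran from -0.08, without MEK5DD replicate 2, to 0.15 over the 14 alternatives.

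Of 6 genes for the cleavage enzymes 1 fell, PSEN2, and 5 were not called. PSEN2 encodes a catalytic subunit of gamma-secretase and had 265 and 244 in WT and 178 and 188 in MEK5DD. The groups were apart by a 1.39-fold fall (log2 fold change -0.47, SE 0.12, limma adjusted p = 0.0205), which was lost with WT replicate 1 left out (adjusted p = 0.197), WT replicate 2 (0.0550), with no mean-variance trend (0.0898) and with DESeq2 (0.0920). The other gamma-secretase subunit genes NCSTN, APH1A and PSENEN had log2 fold changes of -0.08, -0.07 and 0.06, with intervals that stayed between -0.25 and 0.36. The protease genes ADAM10 and ADAM17 had log2 fold changes of 0.04 and 0.10. That of ADAM10 changed sign over the 14 alternatives (-0.08 to 0.16). The exons of all 5 of these uncalled genes overlap another listed gene on the opposite strand.

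Of the nuclear complex none of the 4 genes was called. RBPJ, which brings the complex to DNA, had 5984 and 6062 in WT and 4989 and 5511 in MEK5DD. Both MEK5DD values were lower, the log2 fold change was -0.20 (95% interval -0.34 to -0.06) and the limma adjusted p was 0.0594. It passed with upper-quartile scaling (limma adjusted p = 0.0375). Over the 14 alternatives its log2 fold change ran from -0.27 to -0.13. The Mastermind genes MAML1, MAML2 and MAML3 had log2 fold changes of -0.15, 0.19 and -0.12. In the 14 alternatives that of MAML1 ran from -0.21 to -0.10, and that of MAML3 changed sign (-0.34 to 0.11). NRARP, a target gene whose product dampens Notch, had 684 and 684 in WT and 763 and 665 in MEK5DD, with overlapping groups and an interval of -0.14 to 0.25.

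The number of Notch genes called differed between analyses, and so did the share of all genes called. With no mean-variance trend 3 of 40 were called, beside 2.79% of all tested genes, and with DESeq2 6, beside 8.64%. Genes without a DESeq2 adjusted p, 1524 in all, count here as not called. With edgeR, TMM scaling, either other pseudocount (0.1 or 5) or no filter 12 were called, beside 14.7%, 14.4%, 14.2%, 14.4% and 12.8% of all genes. A mean of at least 50 gave 11 of the 34 Notch genes tested with that filter (17.5% of all genes tested). Upper-quartile scaling gave 13 (15.4%) and a replicate block 16 (21.3%). Leaving out WT replicate 1 or 2 gave 6 and 6 (7.61% and 7.38%), and leaving out MEK5DD replicate 1 or 2 gave 18 and 18 (23.8% and 29.4%).

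**Figure D5:**
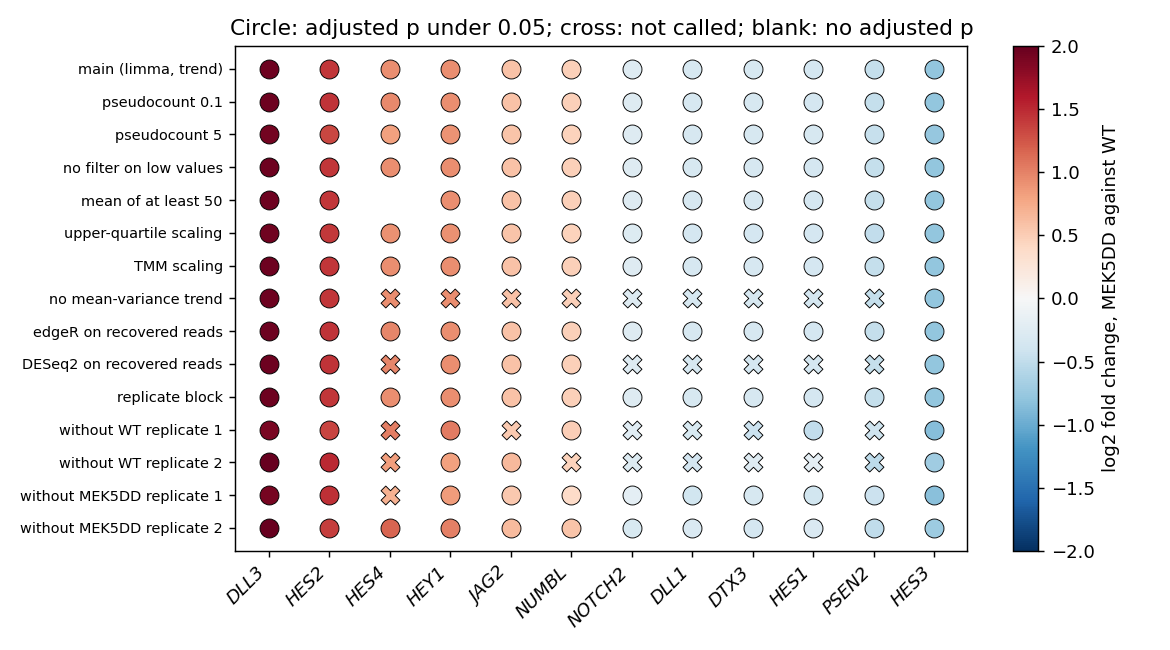
Log2 fold change of MEK5DD against WT (colour) for the 12 called Notch pathway genes (x axis) in the reported analysis and 14 alternatives (y axis); a circle passed an adjusted p of 0.05, a cross did not, and a blank has no adjusted p. DLL3, HES2 and HES3 show circles throughout, and the crosses gather in the analyses without the mean-variance trend, with DESeq2 and without a WT library.

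Other genes of the pathway that are not in the list above were read from 4 further lists of 70 symbols, of which 59 are in the table and 58 were tested. Of these 5 were called higher, with GATA3 (described below) among them, and 7 lower. That is 20.7%, beside 14.2% of all tested genes (7.69% higher and 6.47% lower). Their median log2 fold change was 0.01. Among 22 other enzymes and trafficking factors 2 rose: the ubiquitin ligase gene NEDD4 (log2 fold change 0.61, limma adjusted p = 0.0200) and FURIN, which encodes the convertase that cuts the Notch precursor (0.23, limma adjusted p = 0.0484). Among 21 nuclear cofactors and corepressors 2 fell: the coactivator gene EP300 (-0.25, limma adjusted p = 0.0450) and TLE1, a Groucho-type corepressor gene that HES proteins recruit (-0.24, limma adjusted p = 0.0240). The calls of EP300 and TLE1 were lost with WT replicate 1 left out (adjusted p = 0.270 and 0.274), with WT replicate 2 left out (0.244 and 0.321), with no mean-variance trend (0.273 and 0.177) and with DESeq2 (0.0815 and 0.0538). That of FURIN was lost in the same 4 analyses (adjusted p = 0.283, 0.460, 0.198 and 0.147) and with upper-quartile scaling (adjusted p = 0.0627). That of NEDD4 was lost with WT replicate 2 left out (adjusted p = 0.103), without the trend (0.0732) and with DESeq2 (0.110). Of 4 other non-canonical ligand genes none was called.

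The list of HES-like, proneural and ID factors and other Notch-linked genes had 11 of 20 members tested. Of these 3 were called higher (GATA3, ID1 and MYC) and 5 lower (NEUROG3, SOX9, ID2, ID3 and CCND1). The ID genes called moved in both directions, with log2 fold changes of 0.52 for ID1, -0.53 for ID2 and -0.34 for ID3. The called genes are 72.7% of the 11, beside 14.2% of all tested genes. This share counts GATA3, and the list was chosen with earlier results of these data known, so no conclusion is drawn from it. NEUROG3, a proneural gene that HES1 represses in the pancreas, fell from 58.1 and 87.5 to 19.1 and 26.9 (log2 fold change -1.61, SE 0.28, limma adjusted p = 0.00233). ID2, which encodes an inhibitor of basic helix-loop-helix factors, fell from 1261 and 1268 to 900 and 855 (log2 fold change -0.53, SE 0.07, limma adjusted p = 0.000604). GATA3, a transcription factor gene and Notch target in T cells, had 7.05 and 15.6 in WT and 39.1 and 35.9 in MEK5DD. Only 1 WT library reached the minimum of 10, so GATA3 was tested because of its MEK5DD values, and its call is no independent result. SOX9 fell by 0.54 on the log2 scale (limma adjusted p = 0.0366), a call lost with WT replicate 2 left out (adjusted p = 0.394), without the trend (0.189) and with DESeq2 (0.0993). Without the trend the calls of NEUROG3 and ID2 were lost as well (adjusted p = 0.0756 and 0.0629).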

How the data were processed

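Poly(A) RNA of 4 H1 libraries (2 WT, 2 MEK5DD, grouped by their titles) was read from both ends on a NextSeq 500, per the labels' protocols. The authors deposited 1 signal value per gene and library, a normalised read count. Trimmomatic 0.36, DESeq2 1.26.0, featureCounts 1.5.3, STAR and hg38 appear in the submitters' processing notes without roles; strand use is not stated. Each value was a whole multiple of its library's smallest value (within 0.001 for 100% of genes), which points to 1 scaling factor per library, and whole reads were recovered (14908486 to 17628945 per library). In MEK5DD replicate 2 that smallest value, 0.997, is close to 1, and recovery there rests on the largest departure, 6.86e-05.

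The test was limma 3.58.1 in R 4.3.3 with a mean-variance trend on log2(value + 1), over 15721 genes that reached 10 in 2 or more libraries. This scale understates changes of low genes. All p-values are two-sided. The test was also run on simulated counts in which every gene had the same dispersion (spread beyond counting noise). That run does not measure how reliable the calls from 2 libraries per group are. Alternatives were pseudocounts of 0.1 and 5, no filter, a mean of at least 50, upper-quartile and TMM scaling, no trend, a replicate block, each library left out, and edgeR 4.0.16 (2306 genes called) and DESeq2 1.42.0 on recovered reads. Exon lengths, coordinates and overlaps are from GENCODE 29 (17083 symbols found) and promoters from RefSeq (GRCh38.p14). Symbols were also matched through older names.

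The members and lists were chosen with earlier results of these data known. Each called member, receptor, canonical ligand, and HES or HEY gene is named with every library's value, and of the other lists up to 4 called genes with the largest change; a few further genes were named after their values were seen.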

Additional observations from a re-analysis of the deposited data

How the results depend on the processing

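In all 14 alternatives DLL3, HES2 and HES3 kept their direction and call, and none of the 12 called Notch genes changed direction. The share of all called genes that did the same was not counted. All alternatives reuse the same 4 libraries or a part of them, so they do not replicate the calls. Against 6 higher and 6 lower, 2 and 1 were called without the mean-variance trend. With DESeq2 1 was lower (5 higher), and edgeR, TMM scaling and both pseudocounts gave the same 12 calls by number (6 and 6). Leaving out 1 library gave 2 to 10 lower. Over all genes the count of 2226 became 439 without the trend, 1358 with DESeq2 and 1160 to 4629 without 1 library. With upper-quartile scaling 1184 genes were higher and 1230 lower, against 1209 and 1017.

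The replicate numbers are shared by the groups but the labels tie them to no common source, and the deviations of same-numbered libraries correlated at only 0.047. With a replicate block 3349 genes were called, and 4 further Notch genes passed (RBPJ, RFNG, DTX1 and DTX4).

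Among uncalled Notch genes 8 changed sign in fits that left out 1 library. Over these fits the log2 fold change ran from -0.013 to 0.15 for JAG1, -0.056 to 0.18 for HES6, -0.012 to 0.58 for MFNG, -0.042 to 0.16 for NRARP, -0.34 to 0.11 for MAML3, -0.081 to 0.15 for MIB1, -0.081 to 0.16 for ADAM10 and -0.027 to 0.16 for PSENEN. The cause was not tested. A fit with 1 library in a group assumes that it varies like the other group. HES4, NOTCH4, HES7, HEYL, MFNG and DLK1 had a mean under 50 and were not tested with that filter, and DESeq2 gave no adjusted p for 3 Notch genes. DLK1, HEYL and MFNG had 6 to 20 recovered reads per library.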

Other observations

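HES3 and HES2 lie at the ends of a stretch of 180479 bases on chromosome 1 that holds 4 listed genes; this stretch was chosen after the values were seen. HES3 fell (log2 fold change -0.78) and HES2 rose (1.42). Between them lie GPR153, with 346 and 392 in WT and 340 and 292 in MEK5DD (log2 fold change -0.22, limma adjusted p = 0.225), and ACOT7, which encodes an acyl-CoA thioesterase. ACOT7 had 1875 and 1875 in WT and 2501 and 2195 in MEK5DD and rose (log2 fold change 0.32, limma adjusted p = 0.0135), a call lost with WT replicate 1 left out (adjusted p = 0.108), with WT replicate 2 left out (0.114) and with no mean-variance trend (0.180). The listed genes of this stretch thus did not move in 1 direction.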
